A study of Mus musculus with 8 samples.

Results

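The miR-193 and miR-365 clusters are 4 miRNA hairpins that lie in pairs on mouse chromosomes 11 and 16. Their 7 mature arms, namely mmu-miR-193a-5p, mmu-miR-193a-3p, mmu-miR-193b-5p, mmu-miR-193b-3p, mmu-miR-365-3p, mmu-miR-365-1-5p and mmu-miR-365-2-5p, were chosen by name from the 1966 names of a miRNA sequencing table. Of those names, 1003 had at least 1 count and 564 were abundant enough to be tested, and all 7 arms were among the tested. miRNA abundance was measured in primary articular chondrocytes, the cells of joint cartilage, obtained by collagenase digestion of femoral head cartilage from 3-week-old wild-type mice. For 24 h the cultures received either vehicle or 1 ng/ml of IL-1β, an inflammatory cytokine whose receptor signals to NF-κB, with 4 libraries per group. The strain, the sex and the number of mice behind a library were not given in the sources used here. Nothing stated that the 4 libraries of a group came from separate animals or cultures, so that the p-values measure the spread between these libraries, which may be technical.

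A miRNA is cut from a hairpin precursor as a 5p and a 3p arm, and one of them is usually loaded into Argonaute and retained while the other is degraded. The loaded arm finds target mRNAs mainly through its seed, bases 2 to 8, and lowers their stability or translation. The miR-193 and miR-365 hairpins are known as neighbours that can be made from a common primary transcript. The miR-193b and miR-365 pair is known for its link to brown fat differentiation, miR-193b has been linked to chondrogenic differentiation, and miR-365 is known in cartilage as a miRNA that responds to mechanical load.

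The mature sequences, taken from RefSeq for the GRCm38.p6 assembly, are given because they decide which arms can be told apart and which share a seed. Capitals mark the seed.
mmu-miR-193a-3p: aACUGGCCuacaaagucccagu
mmu-miR-193b-3p: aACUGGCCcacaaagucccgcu
mmu-miR-365-3p: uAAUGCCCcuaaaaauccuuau
mmu-miR-365-1-5p: aGGGACUUuugggggcagaugug
mmu-miR-365-2-5p: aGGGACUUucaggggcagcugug
mmu-miR-193a-5p: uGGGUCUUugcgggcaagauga
mmu-miR-193b-5p: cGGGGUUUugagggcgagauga

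The miR-193 3p arms shared their seed and 19 of 22 bases. The miR-365 5p arms shared their seed and 20 of 23 bases. The miR-193 5p arms shared 17 of 22 bases and differed at 2 bases of the seed, so that these arms are no seed family. No other mature mouse miRNA in RefSeq had 1 of these seeds. Of those as long as the arm they were compared with, without gaps, none came within 3 differences.

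The miR-365 hairpins, both on the plus strand, are shown with their 5p and 3p arms in capitals, since they carry the contrast on which the results turn. The first lies at chr11:79726400-79726511 and the second at chr16:13453840-13453926 of GRCm38.
Mir365-2: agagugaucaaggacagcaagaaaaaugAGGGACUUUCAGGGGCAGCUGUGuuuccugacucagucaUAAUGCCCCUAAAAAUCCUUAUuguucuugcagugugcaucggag
Mir365-1: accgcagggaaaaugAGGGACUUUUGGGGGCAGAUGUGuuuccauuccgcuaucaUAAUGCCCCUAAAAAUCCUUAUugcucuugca

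The 3p arm is the same in both hairpins, so that miR-365-3p could not be assigned to a locus. The 5p arms differ at 3 bases, shown here in capitals, none of them in the seed, and each of these arms therefore names its hairpin.
mmu-miR-365-2-5p: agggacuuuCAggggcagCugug
mmu-miR-365-1-5p: agggacuuuUGggggcagAugug

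Mir193a lies at chr11:79711969-79712034 and Mir193b at chr16:13449523-13449601, also on the plus strand. The hairpins of the chromosome 11 pair are 14365 bases apart and those of the chromosome 16 pair 4238 bases. In the GENCODE annotation of this assembly, the chromosome 11 hairpins lay outside any other gene, downstream of the protein-coding gene Rab11fip4. Both chromosome 16 hairpins lay in an intron of the antisense gene Gm15738, which runs on the opposite strand.

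**Figure D1:**
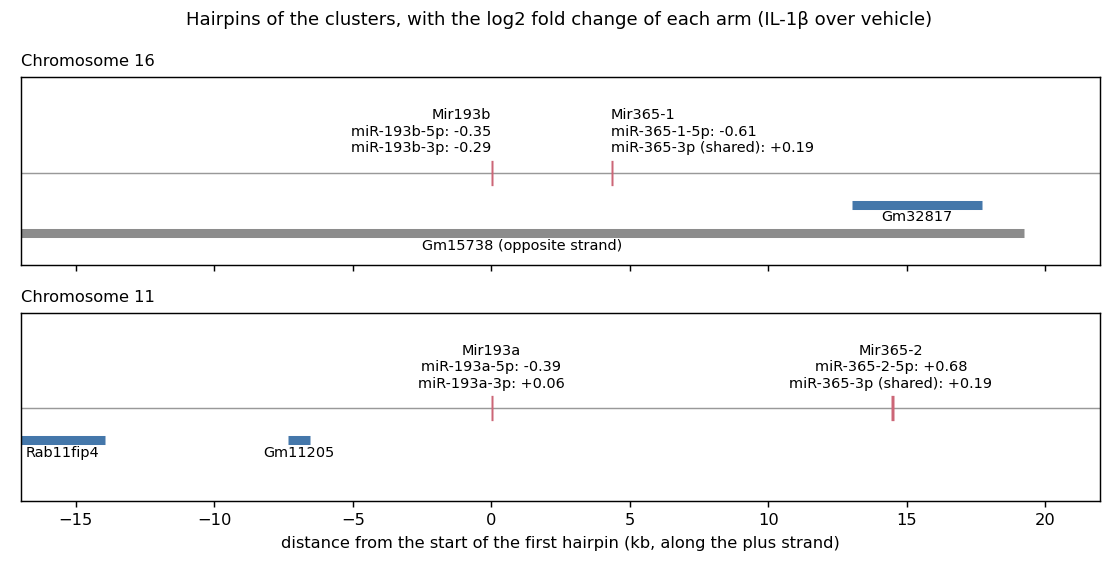
Positions of the 4 hairpins on chromosomes 16 (top) and 11 (bottom), in kb from the start of the first hairpin of each pair; red ticks are hairpins and bars are neighbouring genes (blue on the same strand, grey on the opposite strand), cut at the left edge where they run on. The log2 fold change printed at each arm runs from -0.61 for miR-365-1-5p on chromosome 16 to 0.68 for miR-365-2-5p on chromosome 11, and miR-365-3p is printed at both of its loci.

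The 8 libraries held 616475 to 1568367 counts, so that a single count made 0.638 to 1.62 CPM, the count scaled to a library of 1000000. Levels are given as normalized CPM, that is, CPM after TMM scaling for composition. Counts of different miRNAs were not molar amounts, because ligation favours some sequences, whereas length was not a factor since all 7 arms have 22 or 23 bases. IL-1β replicate 4 stood apart. Over 195 well counted miRNAs, the SD of its log2 deviations from the mean of the rest of its group was 0.40. The same SD was 0.15 to 0.23 in the other libraries. The chondrocyte miRNAs miR-140 and miR-455 (4 of 4 arms detected) held 15.6 to 16.8% of counts in vehicle and 12.4 to 15.3% in IL-1β libraries. These ranges did not overlap, as was so for 7.62% of all single miRNAs tested. Most of these counts were those of miR-140-3p, whose log2 fold change was -0.15 (edgeR adjusted p 0.546). None of the 4 arms was called in the edgeR test described below. Of the miRNAs typical of blood cells, 2 of 6 were detected, at 0.00441 to 0.00638% in vehicle and 0.00260 to 0.00471% in IL-1β libraries. Nearly all of these counts were those of miR-150-5p, which was not called (log2 fold change -0.51, edgeR adjusted p 0.196). In this list, miR-223-3p, miR-142a-3p, miR-451a and miR-144-3p were at 0. The 3 muscle miRNAs were at 0, the endothelial list had 8 counts in all libraries together with miR-126a-5p at 0, and the epithelial list had 24. The part of these differences in the results was not tested. In bulk RNA, fewer cells that make a miRNA and less of it per cell cannot be told apart.

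With IL-1β, 1 of the 7 arms rose, miR-365-2-5p, the 5p arm that only the chromosome 11 hairpin can yield. The other 6 arms did not pass the test. The most abundant arm, miR-193b-3p, was lower in every IL-1β library than in every vehicle library, but met neither the adjusted p nor the fold required for a call. Among all 564 miRNAs tested, 11 were called (1.95%), of which 8 were higher with IL-1β (1.42%), so that 1 call among 7 arms is the result of a single arm. A call needed an edgeR p-value below 0.05 after Benjamini-Hochberg adjustment over all tested miRNAs, together with a log2 fold change beyond 0.3 in either direction. At an unadjusted p under 0.05 in the same edgeR fit there were 2 of the 7 arms and 63 of the 564 miRNAs. The groups did not overlap for 3 of the 7 arms, 1 higher and 2 lower with IL-1β, beside 7.62% of all tested miRNAs.

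**Figure D2:**
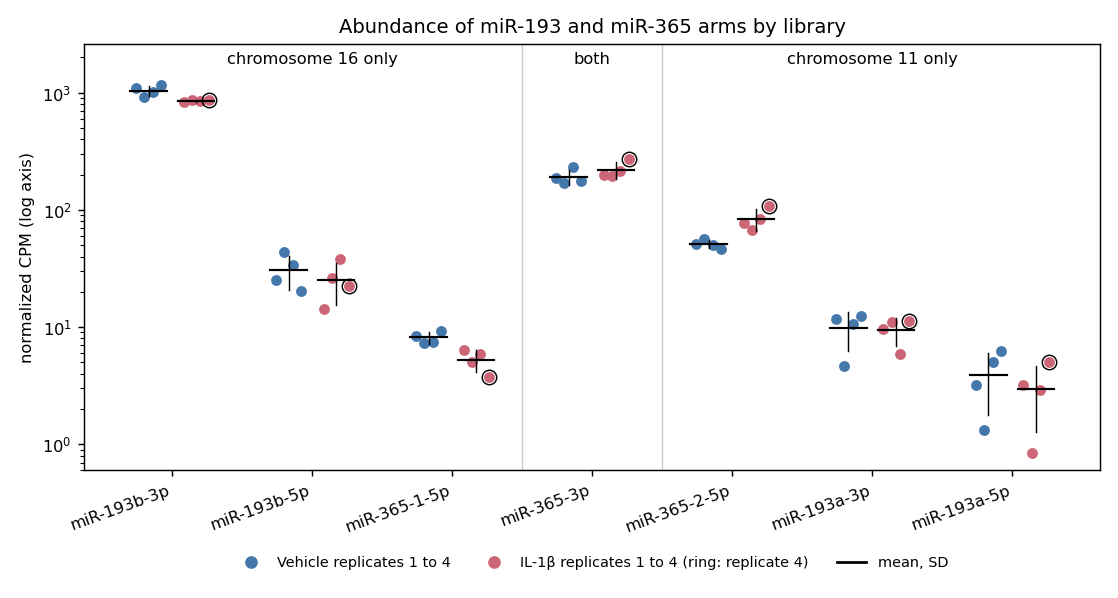
Normalized CPM (log axis) of each arm in the 4 vehicle libraries (blue) and the 4 IL-1β libraries (red), with the mean as a line, the SD as a bar, and a ring around IL-1β replicate 4. miR-365-2-5p sits between 46.7 and 56.7 in vehicle and between 67.4 and 108 with IL-1β, while miR-193b-3p, the most abundant arm, sits at 916 to 1153 and 827 to 872.

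The levels spanned a wide range. Averaged over all libraries, miR-193b-3p ranked 64 of the 564 tested miRNAs, miR-365-3p ranked 122, miR-365-2-5p 180 and miR-193b-5p 240. The rarest arms, miR-193a-3p, miR-365-1-5p and miR-193a-5p, ranked 312, 342 and 409 and had 75, 54 and 26 counts in all libraries together. Over the 8 libraries the ranges of the first 4 arms did not overlap, at 827 to 1153, 171 to 272, 46.7 to 108 and 14.4 to 43.4 normalized CPM. miR-193a-3p and miR-365-1-5p were not separated, at 4.67 to 12.5 and 3.76 to 9.35 normalized CPM, and the range of miR-193a-5p (0.843 to 6.23) reached into both. miR-193b-3p alone made up 77.8% ± 2.87 (SD, n = 4) of the summed level of the 7 arms in vehicle and 71.1% ± 2.79 with IL-1β.

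Of the arms made from chromosome 16, miR-193b-3p held the most counts. It reached 1096, 916, 1004 and 1153 normalized CPM in the vehicle libraries, replicates 1 to 4. With IL-1β, in the same order of replicates, it reached 827, 858, 845 and 872. The IL-1β libraries lay close together and below all vehicle libraries. The means were 1042 ± 104 and 850.5 ± 19.3 normalized CPM (SD, n = 4 each), a log2 fold change of -0.29 with an SE of 0.0871 and an adjusted p of 0.0843 in edgeR, so that it was not called. Over 16 other settings this adjusted p ran from 0.00637 to 0.252 with log2 fold changes of -0.35 to -0.27, and no setting met both criteria at once.

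Its partner from the same hairpin, miR-193b-5p, had 0.0289 counts per count of miR-193b-3p in vehicle (geometric mean). It was at 25.4, 43.4, 33.7 and 20.3 normalized CPM in the vehicle libraries and at 14.4, 26.1, 38.0 and 22.6 in the IL-1β libraries, and the groups overlapped (edgeR log2 fold change -0.35 with an SE of 0.256, adjusted p 0.735). The log2 fold change ran from -0.57 without IL-1β replicate 3 to -0.13 without vehicle replicate 2. The third arm of chromosome 16, miR-365-1-5p, had 3 to 12 counts in a library. Its level was 8.48, 7.34, 7.50 and 9.35 normalized CPM in vehicle and 6.40, 5.06, 5.85 and 3.76 with IL-1β. All IL-1β libraries lay below all vehicle libraries, with means of 8.17 ± 0.935 and 5.27 ± 1.14 (SD, n = 4 each). The log2 fold change of -0.61 had an SE of 0.399, and the edgeR adjusted p was 0.668, so that no change was detectable at this depth.

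The arm common to both chromosomes, miR-365-3p, carries the seed through which miR-365 is usually studied. It was at 186, 171, 234 and 176 normalized CPM in the vehicle libraries. In the IL-1β libraries it was at 199.95, 196, 213 and 272. The highest vehicle library lay above 3 of the 4 IL-1β libraries, and the highest value of all was that of IL-1β replicate 4, the library that stood apart. The log2 fold change was 0.19 with an SE of 0.125 and an edgeR adjusted p of 0.668. It was 0.06 without IL-1β replicate 4 and 0.31 without vehicle replicate 3, and no version passed the test.

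Of the arms made from chromosome 11, miR-365-2-5p rose. It was at 50.9, 56.7, 50.6 and 46.7 normalized CPM in the vehicle libraries, from 48, 85, 81 and 30 counts. In the IL-1β libraries it was at 76.8, 67.4, 83.3 and 108, from 48, 80, 57 and 86 counts. Every IL-1β library lay above every vehicle library. The means were 51.2 ± 4.12 and 83.8 ± 17.3 normalized CPM (SD, n = 4 each), a fold of 1.64, with a log2 fold change of 0.68, an SE of 0.160 and an adjusted p of 0.0195 in edgeR. IL-1β replicate 4 held the highest value, and without it the log2 fold change was 0.52 with an edgeR adjusted p of 0.0409. The call was lost without vehicle replicate 3 (edgeR adjusted p 0.0616), vehicle replicate 4 (0.0787) or IL-1β replicate 3 (0.0516), at log2 fold changes of 0.67, 0.62 and 0.67.

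The arms of the miR-193a hairpin were rare. miR-193a-3p, which shares its seed with miR-193b-3p, was at 11.7, 4.67, 10.6 and 12.5 normalized CPM in vehicle and at 9.60, 10.96, 5.85 and 11.3 with IL-1β. The groups overlapped almost wholly (edgeR log2 fold change 0.06 with an SE of 0.367, adjusted p 0.992). The means, 9.85 ± 3.54 in vehicle and 9.42 ± 2.49 normalized CPM with IL-1β (SD, n = 4 each), differed in the opposite direction to the fitted value, so that no direction can be given. miR-193a-5p had 1 to 8 counts in a library, and its SE of 0.666 was larger than its log2 fold change of -0.39 (edgeR adjusted p 0.871). It had the widest relative spread of the 7 arms, and its groups overlapped.

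**Figure D3:**
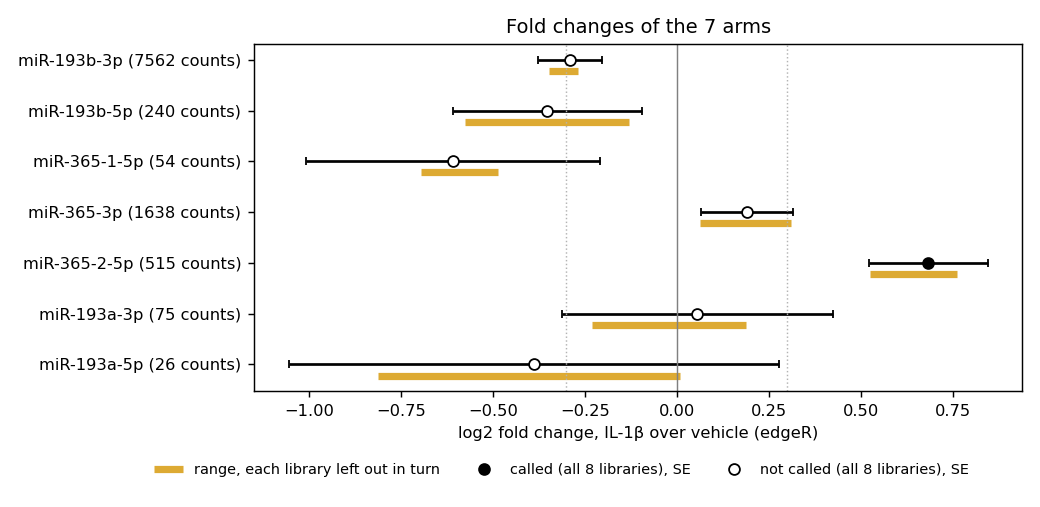
The log2 fold change (IL-1β over vehicle, edgeR) of each arm with its SE as a black bar, a filled circle where the arm was called, and in gold the range when each library was left out in turn; dotted lines mark the fold required for a call. miR-365-2-5p is the only filled circle, with a range of 0.52 to 0.76, and the ranges of both miR-193a arms reach or cross 0.

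Among all tested miRNAs the median log2 fold change was 0.01, and among the 195 miRNAs that averaged 50 counts or more the 5th and 95th percentiles were -0.24 and 0.48. Of the 3 arms counted that deeply, miR-365-2-5p lay above this range, miR-193b-3p below it and miR-365-3p inside it.

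**Figure D4:**
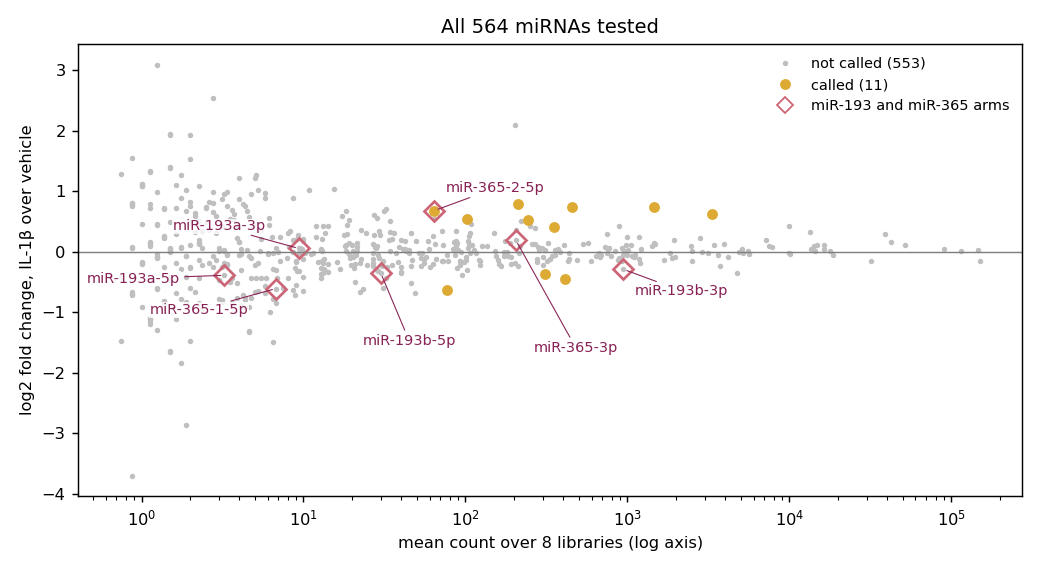
The log2 fold change of all 564 tested miRNAs (vertical axis) against their mean count over the 8 libraries (horizontal log axis), with the 11 called miRNAs in gold and the 7 arms as open diamonds. miR-365-2-5p is the rarest of the called miRNAs, at a mean of 64.4 counts, and the arms with under 10 counts lie where uncalled miRNAs scatter widely.

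Whether arms responded unequally was asked with ratios taken within each library, in which depth and scaling cancel. There were 6 such ratios, and an arm had to average 10 counts for its ratio to be tested, which left 2. The ratio of miR-365-2-5p to miR-365-3p was 0.276, 0.333, 0.218 and 0.269 in the vehicle libraries and 0.386, 0.346, 0.392 and 0.398 in the IL-1β libraries. All IL-1β values lay above all vehicle values. The difference was 0.49 on the log2 scale (1.40-fold; single pairs of libraries 0.05 to 0.87), with an exact permutation p of 0.0286, which is the smallest that 70 arrangements allow, and 0.171 after Benjamini-Hochberg adjustment over the 6 ratios. No single ratio could pass that adjustment. miR-365-2-5p was thus higher against miR-365-3p in 4 of 4 IL-1β libraries, without passing the correction, and from which locus the counts of miR-365-3p came was not known.

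The ratio of miR-365-2-5p to miR-365-1-5p compares the arms that name the chromosome 11 and the chromosome 16 hairpin. It was 5.71, 7.43, 6.52 and 4.69 in vehicle and 10.8, 12.4, 12.8 and 24.7 with IL-1β. The groups did not overlap, and the highest value belonged to IL-1β replicate 4. The difference was 1.26 on the log2 scale (2.39-fold; single pairs 0.54 to 2.397), and 0.99 without that library. Because miR-365-1-5p averaged 6.75 counts, the ratio was below the minimum for a test. With the minimum lowered to 5 counts, a choice made after seeing the data, its exact permutation p was 0.0286 (0.0857 after adjustment over the 6 ratios), and the adjusted value of the ratio of miR-365-2-5p to miR-365-3p was also 0.0857. Since the levels of miR-365-2-5p and miR-365-1-5p were each apart between the groups, in opposite directions, their ratio had to be apart as well, and its p adds nothing to those levels.

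The miR-193 ratios gave no such separation. The ratio of miR-193b-5p to miR-193b-3p had a mean log2 of -5.11 in vehicle and -5.12 with IL-1β, and single pairs of libraries ran from -1.38 to 1.33 (exact permutation p 1). The ratio of miR-193a-3p to miR-193b-3p, which compares the chromosomes through the shared miR-193 seed, differed by 0.30 on the log2 scale with overlapping groups. With the same lowered minimum its exact permutation p was 0.429 (0.857 after adjustment over the 6 ratios). The difference was 0.05 without vehicle replicate 2 and 0.49 without IL-1β replicate 3, and single pairs ran from -0.56 to 1.32, a span that contains the difference between the miR-365 5p arms. The remaining pair of ratios, of miR-193a-5p to miR-193a-3p and to miR-193b-5p, differed by -0.30 and 0.01 with overlapping groups and rested on 3.25 counts of miR-193a-5p on average. With a library left out, the first ran from -0.56 (without IL-1β replicate 3) to 0.21 (without IL-1β replicate 2) and the second from -0.58 (without vehicle replicate 2) to 0.49 (without IL-1β replicate 2), so that neither had a settled sign.

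**Figure D5:**
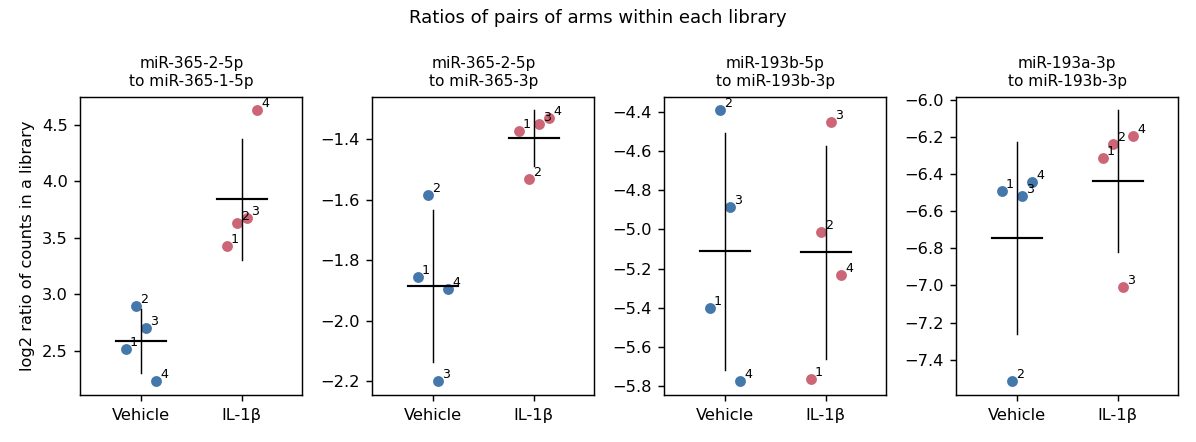
The log2 ratio of counts of the named arms in each library, with vehicle in blue, IL-1β in red, replicate numbers beside the points, the mean as a line and the SD as a bar; the vertical axes differ between panels and do not start at 0. The groups are apart in the left pair of panels, by 1.26 and 0.49, and overlap in the right pair.

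Summed by chromosome, the arms that only chromosome 16 yields had 1081 ± 95.1 normalized CPM in vehicle and 881 ± 22.6 with IL-1β (SD, n = 4 each), and those that only chromosome 11 yields had 65.0 ± 1.57 and 96.2 ± 19.4. Chromosome 11 supplied 5.50, 6.10, 5.96 and 5.24% of the counts that could be assigned to a chromosome in vehicle, and 9.56, 8.18, 9.39 and 12.1% with IL-1β. These sums were set by miR-193b-3p and miR-365-2-5p and are given without a test. Further ratios, added after seeing the data, set both miR-365 arms against miR-193b-3p. They were chosen for how these arms differed and are given without a test. The ratio of miR-365-2-5p was 1.97-fold higher with IL-1β, and that of miR-365-3p was 1.40-fold higher with overlapping groups.

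The miRNAs with the profile most like that of miR-365-2-5p over the 8 libraries were sought among 192 others that averaged 50 counts or more, by the root mean square difference of log2 levels after subtraction of each vehicle mean. The nearest was miR-192-5p at a distance of 0.17, with means of 52.2 ± 9.14 and 78.4 ± 18.4 normalized CPM (0.54 on the log2 scale, edgeR adjusted p 0.115). miR-192-5p is known as a liver miRNA that is also found in serum. The list of such miRNAs held 0.00521 to 0.00714% of counts in vehicle and 0.00714 to 0.0109% in IL-1β libraries, but most of these counts were those of miR-192-5p itself. Of its other members, miR-194-5p had a log2 fold change of 0.06 (edgeR adjusted p 0.992) and miR-122-5p, the defining miRNA of liver, was at 0. The part of a liver or serum source in these values was not tested. The next were miR-21a-5p at 0.18, which rose (0.75 on the log2 scale, edgeR adjusted p 3.58e-05), and miR-6944-3p at 0.24, which rose (0.55, edgeR adjusted p 0.0323). Among the 7 arms themselves, the profiles of miR-193b-3p and miR-365-1-5p were nearest to each other, at 0.27, although the latter rested on 3 to 12 counts in a library. The arms of this nearest pair are both of chromosome 16. miR-193b-3p lay 0.50 from miR-193b-5p of its own hairpin and 0.41 from miR-193a-3p of chromosome 11, which had 4 to 17 counts in a library. At such counts these distances cannot decide whether the arms group by chromosome. The paralogous 5p arms miR-365-1-5p and miR-365-2-5p were the farthest apart, at 0.95.

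The arms were set beside lists of other miRNAs with related roles, for which the background among all 564 tested miRNAs is 11 called by edgeR (1.95%; 8 of them higher), 12 called by DESeq2 (2.13%) and 63 at an unadjusted edgeR p under 0.05. Of 14 miRNAs linked to NF-κB or IL-1, 12 were tested, 2 were called higher (miR-21a-5p and miR-222-3p, the latter by 0.62 on the log2 scale, edgeR adjusted p 2.46e-05), none lower, and the median log2 fold change was 0.26 beside 0.01 for all tested miRNAs. DESeq2 called 3, and 5 were at an unadjusted edgeR p under 0.05. The third by DESeq2 was miR-146a-5p, named here after its values were seen, which had the largest log2 fold change of the list in edgeR at 2.09 with an SE of 0.562 and an adjusted p of 0.184. Of 17 miRNAs linked to chondrocyte differentiation and matrix, 14 were tested and 0 called by edgeR or DESeq2, with 4 at an unadjusted edgeR p under 0.05 and a median of 0.01. Of 18 linked to brown fat differentiation, the process for which the miR-193b and miR-365 pair is known, 14 were tested and 0 called by edgeR or DESeq2, with 2 at an unadjusted edgeR p under 0.05 and a median of -0.02.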

How the data were processed

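miRNA-seq libraries of 8 samples were analysed, 4 per group as the labels give them. The authors deposited raw counts of reads per mature miRNA. According to the study's methods, reads were trimmed with cutadapt, aligned to mm10 with STAR at default settings and counted with featureCounts. The submitters' processing notes name STAR 2.4.2a, which is not the version that the methods name. The methods name a GENCODE annotation, whereas the names follow miRBase. A correction with RUVseq is described, but the deposited columns were whole numbers with unequal totals and were treated as uncorrected. Use of strand and of multimapping reads was not given in the sources used here. This bears on miR-365-3p, which has several loci but a listed length of a single copy, so that its counts may come from either locus or both. STAR defaults are meant for longer reads, and reads too short to place would be missing.

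Counts were fitted with the edgeR 4.0.16 quasi-likelihood test (R 4.3.3; TMM, robust, two-sided, group as the only term) for miRNAs over 1 CPM in at least 4 of 8 libraries. Ratios used log2 of counts plus 0.5 and an exact two-sided permutation test. The script was tested on simulated data. No molecular identifiers were described, so that precision from depth covers counting error only, and 3 counts, the limit that a count of 0 allows, were worth 1.91 to 4.87 CPM. Named were all 7 arms, the 3 nearest profiles of each called arm, and the called members of the lists. Arms and lists were chosen with earlier results of these data known. Alternatives were median-of-ratios scaling, library totals, DESeq2 1.42.0, other filters, a replicate block, 1 factor of unwanted variation, a non-robust fit, a fold threshold of 1, another pseudocount, summed counts and leaving out each library. Sequences and hairpin positions came from RefSeq tables (GRCm38.p6) and matched all 7 arms.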

Additional observations from a re-analysis of the deposited data

Results flagged for a closer look

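For the level and ratio values of the arms, 26 groups of 4 libraries were examined for a library far from the other 3, and 2 were found, where chance gives about 1 in 20. Both concerned the log2 ratio of miR-193a-3p to miR-193b-3p. Vehicle replicate 2 had -7.52, a gap to its nearest neighbour of 0.929 of the range of its group, from 7 counts of miR-193a-3p. IL-1β replicate 3 had -7.01, a gap of 0.853 of the range, from 4 counts.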

How the results depend on the processing

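Depth limited miR-193a-5p, miR-193a-3p and miR-365-1-5p, which had under 10 counts on average and for which DESeq2 gave no adjusted p. The call of miR-365-2-5p held under 13 of 16 alternatives (edgeR or DESeq2 adjusted p 0.00126 to 0.0787; the 3 exceptions each left out a library), and it was lost as well at a fold threshold of 1, where 0 of 7 arms and 0 of all miRNAs were called although 63 had an unadjusted edgeR p under 0.05. Over the other settings, 28 miRNAs were called with 1 factor of unwanted variation. Leaving out each library gave 6 to 19 calls (19 without IL-1β replicate 4, 7 without vehicle replicate 2 or IL-1β replicate 3, 6 without vehicle replicate 4) and 0 to 1 called arms.

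Leaving out each library moved the log2 fold change of miR-365-2-5p between 0.52 and 0.76, of miR-193a-5p between -0.81 and 0.0093, and of miR-193a-3p between -0.23 and 0.19, the sign turning without IL-1β replicate 2 for both and without vehicle replicate 2 or IL-1β replicate 4 for miR-193a-3p. The difference in the ratio of miR-193b-5p to miR-193b-3p was -0.0040 on the log2 scale, 0.0096 with a pseudocount of 1, and -0.23 to 0.24 with a library left out. The cause of these changes was not tested.

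The deviations of libraries with the same replicate number had correlations over 195 miRNAs of 0.17, -0.34, 0.10 and -0.18 for replicates 1 to 4. With 4 libraries per group, these correlations cannot decide whether the numbers pair the libraries, and the main test did not pair them. With a replicate block 19 miRNAs and 1 arm were called, miR-365-2-5p at 0.66 (edgeR adjusted p 0.00800), and in vehicle 2 of the 4 libraries correlated best with their own number. The minimum of 5 counts and the ratios to miR-193b-3p were chosen after seeing the data.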
